A study of Macaca mulatta with 30 samples.

Results

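Genes of the endocrine pancreas were followed across tissues of the rhesus macaque, 10 in number: the islet hormones INS, GCG, SST, PPY and IAPP, and the secretory granule genes CHGA, CHGB, PCSK1, PCSK2 and SCG5. They were taken as listed by symbol, and 10 of 10 were present among the 21292 genes of the deposited abundance table. Gene expression had been measured by RNA sequencing in 30 libraries, 1 from each of 5 tissues (pancreas, liver, and the parotid, submandibular and sublingual salivary glands) of 6 rhesus macaques (Macaca mulatta), so each tissue had 6 libraries from different animals. Animals 1 to 4 were female and animals 5 and 6 male. All libraries came from total RNA of flash-frozen tissue, extracted per the labels from 3 sections of 30 µm, with no treatment, allele or age named in the labels. Each library is therefore bulk tissue in which islets are mixed with exocrine tissue, and fewer cells of a type cannot be told apart from less RNA per cell.

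Islets of Langerhans are small endocrine clusters scattered through the exocrine pancreas. Beta cells make insulin (INS) and co-secrete amylin (IAPP), alpha cells make glucagon (GCG), delta cells make somatostatin (SST), which restrains the other hormones, and PP cells make pancreatic polypeptide (PPY). The hormones are cut from longer precursors by the convertases PCSK1 and PCSK2 inside dense-core granules whose matrix holds the chromogranins CHGA and CHGB, and SCG5 encodes 7B2, a chaperone of PCSK2. The question put to the data was how much of each gene the pancreas libraries held, how it varied between animals, and what was seen of it in the glands and the liver. Values are TPM, the share of a fixed library total that a transcript takes once its length is allowed for. The sequencing depth behind them is unknown, so no counting interval is given.

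Some libraries of animal 4 stood apart and are set out before the results. A sum of 14 acinar genes (digestive enzymes such as PRSS1, trypsinogen, and CLPS, colipase) made up 36.4 to 42.4% of all TPM in the pancreas libraries of animals 1, 2, 5 and 6, 20.4% in animal 3 and 0.444% in animal 4. The pancreas library of animal 4 held 18343 TPM over 7 adipocyte genes and 6016 TPM over 6 red cell genes. In animals 1, 2, 5 and 6 these sums were 21.2 to 127 and 47.9 to 102 TPM. Animal 3 was also higher, with 1747 and 227 TPM. The submandibular library of animal 4 was alike in this, with adipocyte genes at 8411 TPM (11.6 to 140 in the other 5) and 7 salivary secretory genes at 2326 TPM (250223 to 357510 in the other 5). In the sublingual library of animal 4 the salivary sum was 4647 TPM, against 47581 to 452924. Results that rest on animal 4 are given with and without it.

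INS was by far the most abundant of the 10 in pancreas. Its level was 11444, 6281, 127239, 408, 10727 and 8897 TPM in animals 1 to 6, a mean of 27499 TPM ± 49025 (SD, n = 6) and a median of 9812. Animals 1, 2, 5 and 6 lay within 1.82-fold of each other, animal 3 lay above all of them and animal 4 below. INS ranked first among all genes in the pancreas library of animal 3, between 17 and 27 in animals 1, 2, 5 and 6, and 358 in animal 4.

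The other hormones followed well below. IAPP, the beta cell partner of insulin, was at 704, 490, 3681, 9.60, 196 and 637 TPM in animals 1 to 6. GCG was at 465, 331, 835, 16.5, 325 and 550 TPM, the narrowest spread of the abundant hormones once animal 4 is set aside (501 TPM ± 209, SD, n = 5). SST was at 82.3, 86.3, 858, 4.17, 167 and 358 TPM. For INS, IAPP, GCG and SST alike, animal 3 was the highest library and animal 4 the lowest. PPY did not have that order. It was at 6.59, 14.7, 13.0, 11.8, 12.8 and 3.05 TPM, with animal 2 highest, animal 6 lowest and animals 3 and 4 in between.

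In animals 1, 2, 3, 5 and 6 each granule gene was below INS, IAPP, GCG and SST, the cargo that they help to make and store, and in animal 4 SCG5 was above SST. Among the granule genes SCG5 was the most abundant, at 23.6, 12.4, 125, 5.08, 12.2 and 26.6 TPM in animals 1 to 6. CHGA was at 4.70, 2.22, 13.3, 0.391, 4.79 and 3.45 TPM. CHGB was at 1.99, 2.42, 14.7, 1.20, 0.914 and 1.73 TPM. Animal 3 was again the highest library for each of these, and animal 4 the lowest except for CHGB, where animal 5 was. PCSK1 was the lowest of the group in every animal, and PCSK2 was near the chromogranins. PCSK2, the convertase that acts late in insulin processing and makes glucagon in alpha cells, was at 2.07, 0.848, 6.73, 0.505, 1.77 and 2.98 TPM. PCSK1 was at 0.560, 0.265, 1.39, 0, 0.0831 and 0.838 TPM, listed at 0 in animal 4. Where both were above 0, PCSK2 was 3.20 to 21.3 times PCSK1, and SCG5 was 6.91 to 18.6 times its client PCSK2 in all 6 libraries. CHGA came to between 0.105 and 0.959 TPM per 1000 TPM of INS.

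**Figure D1:**
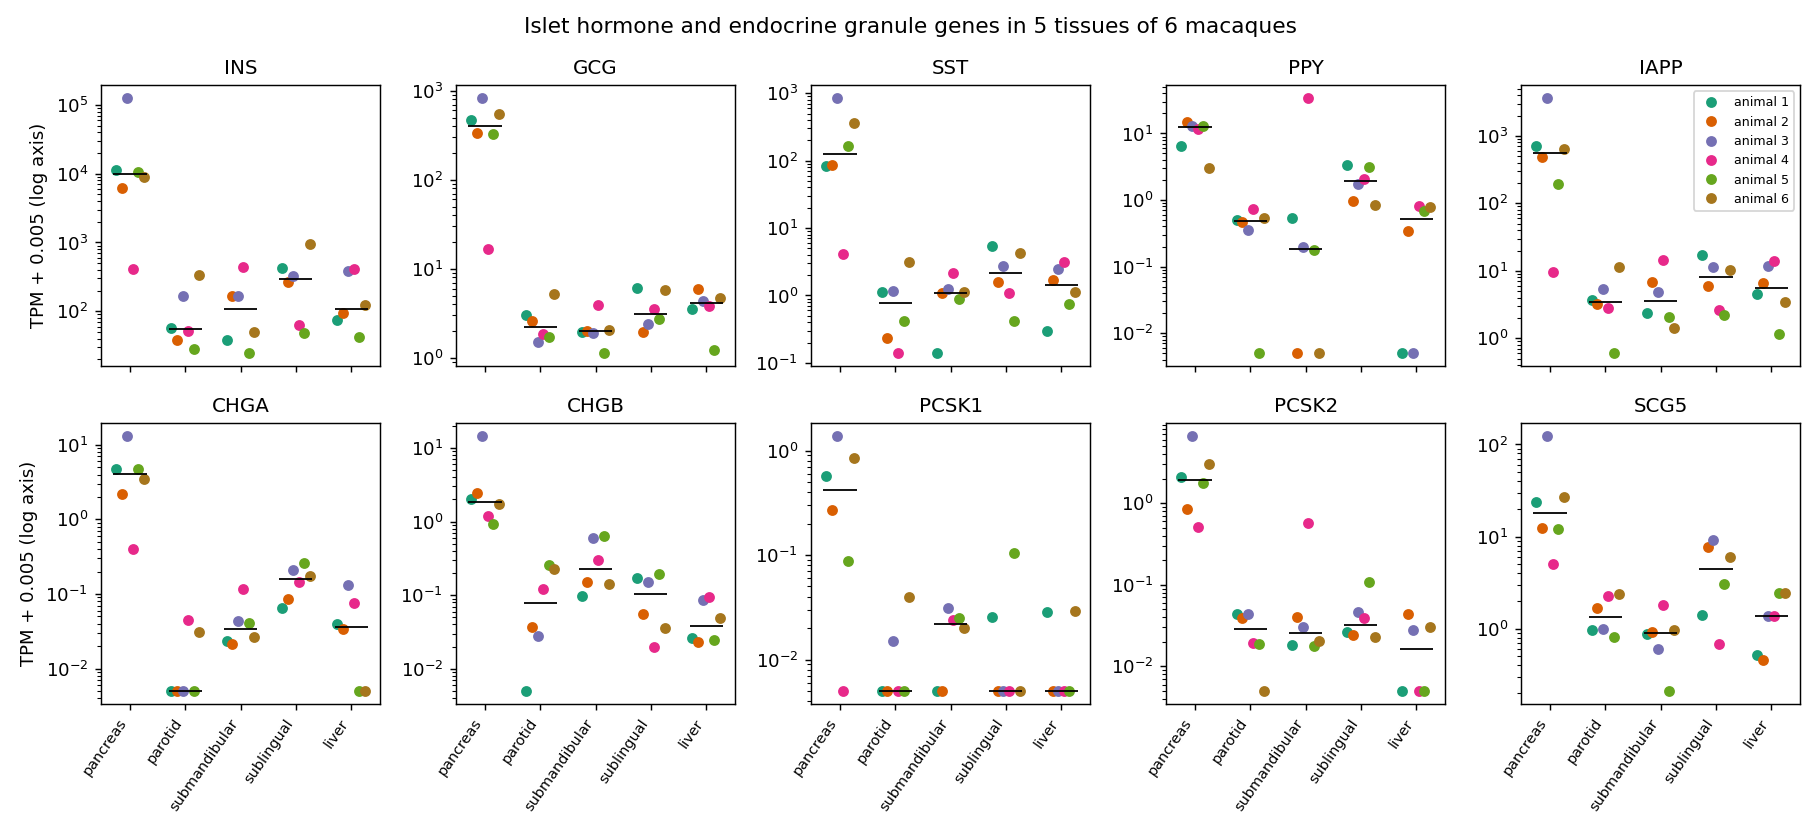
TPM plus 0.005 on a log axis for each of the 10 genes (panels) in each tissue (x axis). Each point is 1 library, coloured by animal, and the line is the median of 6. Pancreas is highest for every gene by its median; the pancreas library of animal 4 lies near the other tissues for INS, IAPP and SST, and PPY has a lone submandibular point at 34.4 TPM, from animal 4.

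Relative to the other pancreas libraries, animal 3 held more of most members but not to the same degree. Its level over the median of the other 5 was 14.3-fold for INS, 10.1-fold for SCG5, 9.93-fold for SST, 8.53-fold for CHGB and 7.51-fold for IAPP. It was 5.24-fold for PCSK1, 3.87-fold for CHGA, 3.80-fold for PCSK2, 2.52-fold for GCG and 1.10-fold for PPY. The beta cell and delta cell hormones were more raised in this library than the alpha cell hormone, and the PP cell hormone was not raised beyond the range of the others. Because TPM are shares of a total, these ratios move with what else is in the library. Taken relative to all genes except the acinar list, they were 10.3 for INS, 7.47 for SST, 5.64 for IAPP, 1.90 for GCG and 1.37 for PPY. After trimmed-mean scaling, which sets most genes equal between libraries, they were 7.67, 4.77, 3.61, 1.21 and 1.16. The order of these 5 hormones was the same under each scaling. Over the 13550 genes tested, the median ratio of animal 3 to the other 5 was 1.73 in TPM, and 20.8% of genes had their highest pancreas value in animal 3, against 9 of the 10 members. With 1 pancreas library per animal, a difference between animals cannot be told apart from a difference between the pieces of tissue taken, and no test is given.

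Other islet genes in the pancreas library of animal 3 were not all raised alike. UCN3, urocortin 3 of beta and alpha cells, was 11.6-fold above the median of the other 5 libraries, and ABCC8, the sulfonylurea receptor subunit of the beta cell potassium channel, 11.9-fold. PCSK1N, an inhibitor of PCSK1, was 8.97-fold higher. PTPRN2, a granule membrane protein, was at 0.718 of the median. Of 15 islet transcription factors, 13 had their highest pancreas value in animal 3, with a median ratio of 4.38. Of the 14 acinar genes none did, with a median ratio of 0.530. Of 6 duct genes 1 did, with a median ratio of 1.25. The adipocyte genes had a median ratio of 32.0 in animal 3, and whether they take part in the differences of the hormones was not tested.

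In animal 4 the members fell short of the other pancreas libraries by different amounts. The level over the median of the other 5 was 0.0151 for IAPP, 0.0250 for SST, 0.0354 for GCG and 0.0380 for INS, and 0.0833 for CHGA. It was 0.215 for SCG5, 0.244 for PCSK2, 0.603 for CHGB and 0.920 for PPY. The acinar genes were at a median of 0.0125 of the other libraries, and the 13550 genes tested at a median of 2.57. INS, GCG, SST and IAPP were down in this library along with the exocrine genes, while PPY stayed level in TPM. After trimmed-mean scaling the ratio was 0.629 for PPY, 0.245 for CHGB, 0.0993 for PCSK2, 0.0875 for SCG5 and 0.0146 for INS. CPE, the carboxypeptidase that trims hormone precursors and is also made outside islets, was 3.93-fold above the median of the other 5. It was at 127 TPM in animal 4 and 99.0 TPM in animal 3. The parts that fat, blood and nerve take in these values were not tested.

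**Figure D2:**
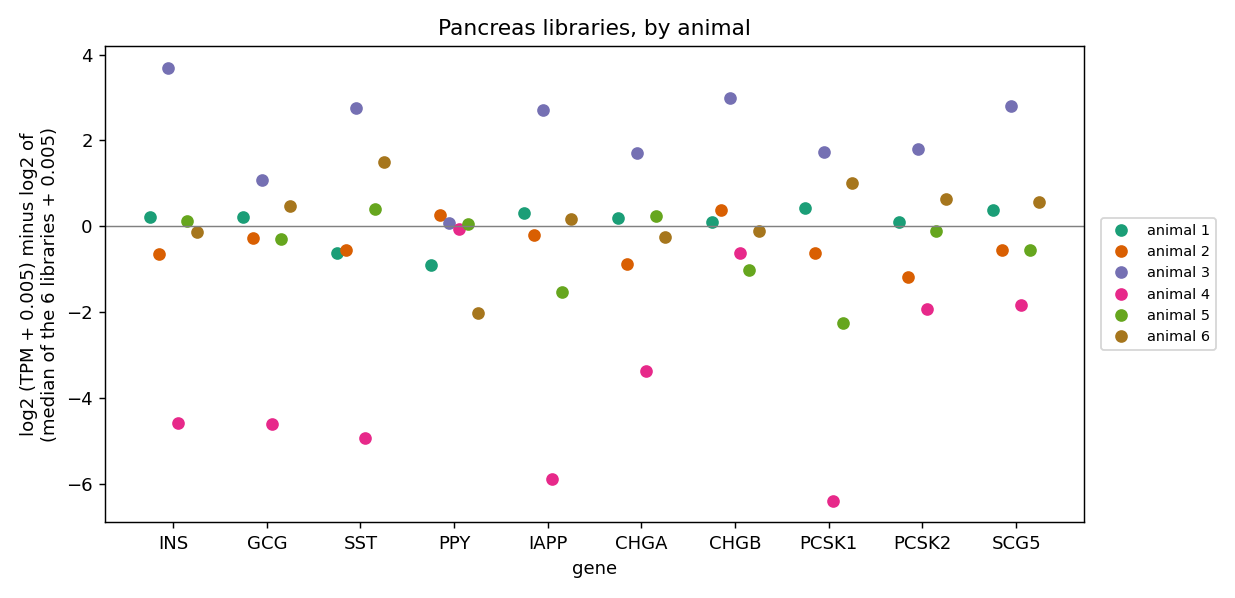
Level of each gene in the 6 pancreas libraries, as log2(TPM + 0.005) minus log2 of the median of the 6 plus 0.005, with points coloured by animal. Animal 3 lies above the other libraries for all genes except PPY, and animal 4 lies below for all except PPY and CHGB.

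The hormones did not keep fixed proportions. INS made up 90.7 to 98.7% of the summed TPM of INS, GCG, SST and PPY, with animal 6 lowest and animal 3 highest. INS was 16.2 to 33.0 times GCG in animals 1, 2, 4, 5 and 6, and 152 times GCG in animal 3. Animal 4 lay inside that range at 24.8, although both its hormones were more than an order of magnitude below the others. GCG exceeded SST by 5.66 times in animal 1, 3.83 in animal 2, 3.95 in animal 4, 1.95 in animal 5 and 1.54 in animal 6, and the pair were about level in animal 3 at 0.974. IAPP came to 1.83 to 7.81 TPM per 100 TPM of INS, lowest in animal 5 and highest in animal 2. Within the sum of the non-insulin hormones GCG, SST and PPY, PPY took 36.4% in animal 4 and 0.334 to 3.41% in the other 5. The males lay within the range of the females for 8 of the 10 genes, with animal 6 below it for PPY and animal 5 for CHGB. With 2 males no comparison of the sexes is made.

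The series names the contrast of pancreas with the glands and with liver as its main one. It was tested with limma on log2(TPM + 1), with tissue and animal in the model, over the 13550 genes that reached 1 TPM in 6 or more libraries. Fold changes on this scale understate the change of low genes. INS, GCG, SST, PPY, IAPP and SCG5 passed that filter. PPY passed it only through its pancreas libraries, which favours a difference, so its calls in this fit are given as a description. CHGA, CHGB, PCSK1 and PCSK2 reached 1 TPM in 5, 5, 1 and 4 of the 30 libraries, so they were tested only in a fit without the filter.

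All 6 tested genes were higher in pancreas against all 4 tissues, 6 of 6 each time at an adjusted p below 0.05, with PPY counted as a description. Over all genes, 13.6% were called higher in pancreas against parotid, 7.46% against submandibular gland, 3.51% against sublingual gland and 6.76% against liver, and 15.8, 9.71, 13.9 and 30.4% in either direction. INS was higher by 6.78 on the log2 scale against parotid (SE 0.85, limma adjusted p = 2.02e-06), 6.50 against submandibular gland (adjusted p = 5.18e-06 in limma), 5.26 against sublingual gland (limma adjusted p = 5.54e-05) and 5.95 against liver (limma adjusted p = 3.00e-06). The SE is the same in all 4 because the groups are equal in size. The INS ranges nevertheless touched: 408 TPM in the pancreas library of animal 4 was below 446 in its own submandibular library, 413 in its liver, and 424 and 940 in the sublingual libraries of animals 1 and 6. Without the pancreas library of animal 4 the lowest pancreas level of INS was 6281 TPM and no library of another tissue overlapped.

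GCG had the smallest error of the 6 hormones and granule genes relative to its difference. Its differences were 6.30, 6.47, 5.93 and 5.87 on the log2 scale against parotid, submandibular gland, sublingual gland and liver (SE 0.53), with limma adjusted p-values between 1.04e-09 and 2.53e-08. Its lowest pancreas library, at 16.5 TPM, lay above its highest library elsewhere, at 6.07 TPM. GCG was therefore the 1 abundant hormone whose groups did not overlap even with animal 4 included. How many of all genes lacked such overlap was not counted. SST was higher by 5.93, 5.79, 5.15 and 5.55 (SE 0.65) and IAPP by 6.23, 6.09, 5.49 and 5.73 (SE 0.76) in the same order, all called in limma at adjusted p-values of at most 7.64e-06. Libraries of other tissues lay above the pancreas library of animal 4 in 2 cases for SST and 7 for IAPP, and in 0 cases for both without it.

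PPY and SCG5 stood less far above the other tissues. PPY was higher in pancreas by 2.87 against parotid, 2.32 against submandibular gland, 1.85 against sublingual gland and 2.89 against liver (SE 0.51, limma adjusted p = 0.000238, 0.00294, 0.0138 and 7.09e-05). The sublingual call was lost in limma without animal 2 (1.62, adjusted p = 0.102), without animal 3 (1.75, adjusted p = 0.0652) and with a pseudocount of 0.1 (2.30, adjusted p = 0.0783). SCG5 was higher by 3.12, 3.53, 2.19 and 3.21 (SE 0.47), with limma adjusted p-values of 2.51e-05, 6.23e-06, 0.00137 and 4.03e-06. For SCG5, 3 sublingual libraries, those of animals 2, 3 and 6, exceeded the pancreas library of animal 4, and 0 libraries exceeded any other pancreas library. For PPY, 3 libraries exceeded the lowest pancreas library, that of animal 6 at 3.05 TPM: the submandibular library of animal 4 at 34.4 and the sublingual libraries of animals 1 and 5 at 3.34 and 3.12. The PPY groups thus overlapped with or without animal 4.

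**Figure D3:**
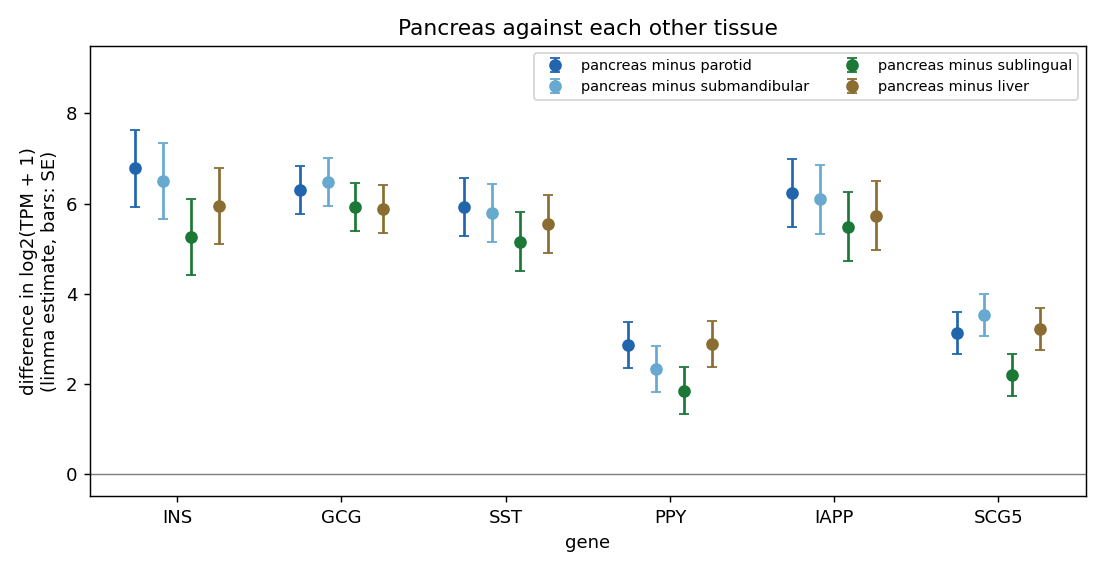
Difference of pancreas minus each other tissue in log2(TPM + 1) for the 6 genes that passed the filter, with limma estimates as points and SE as bars. INS, GCG, SST and IAPP lie between 5.15 and 6.78, PPY and SCG5 between 1.85 and 3.53.

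The 4 low genes were also called higher in pancreas when no filter was used, so that in this fit 10 of 10 members were called against each tissue. Over the 20650 genes of that fit, 10.7, 6.66, 3.76 and 6.61% were called higher in pancreas against parotid, submandibular gland, sublingual gland and liver. The median difference of the 10 members was 2.99, 2.93, 2.10 and 3.05, and that of all genes in the same fit 0.29, 0.16, -0.09 and -0.10. CHGA was higher by 2.00 to 2.19 (SE 0.27), CHGB by 1.43 to 1.75 (SE 0.28), PCSK2 by 1.45 to 1.56 (SE 0.22) and PCSK1 by 0.51 to 0.53 (SE 0.12). The largest of these 16 limma adjusted p-values was 0.00626, for PCSK1 against submandibular gland. CHGA and CHGB did not overlap with any library outside pancreas: their lowest pancreas values, 0.391 and 0.914 TPM, lay above their highest values elsewhere, 0.257 and 0.636 TPM. The share of all genes without overlap was not counted.

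Within animals, the direction was the same in most pairs. Pancreas was above parotid in all 6 animals for 9 of the 10 genes, above sublingual gland for 9, above liver for 7 and above submandibular gland for 5. Flipping the signs of the 6 differences in all ways, an exact two-sided permutation, cannot give a p below 0.03125. It gave that value for each of these 30 and a larger one for the other 10 of the 40 tests, all unadjusted. The exceptions were few in kind. In animal 4, pancreas was below submandibular gland for INS, IAPP, PPY, PCSK1 and PCSK2, by 0.13, 0.53, 1.47, 0.03 and 0.06 on the log2 scale. In the same animal it was below liver for INS and IAPP, by 0.02 and 0.48. PCSK1, listed at 0 in the pancreas of animal 4, tied at 0 with parotid, sublingual gland and liver, and in animal 5 it was below sublingual gland. Without animal 4, pancreas was above submandibular gland for 10 of 10 genes. The share of all genes with the same direction in every animal was not counted, so these counts have no background beside them.

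Hormone transcripts were also listed in the libraries of the glands and the liver, which is not read here as expression by those tissues. INS was above 0 in all 24 libraries outside pancreas, from 24.6 to 940 TPM with a median of 110. Its median was 54.5 TPM in parotid, 108 in submandibular gland, 297 in sublingual gland and 110 in liver, and the ranges of all 4 tissues overlapped. GCG ran from 1.12 to 6.07 TPM outside pancreas, SST from 0.134 to 5.38 and IAPP from 0.599 to 16.9. PPY was listed at 0 in 5 of the 24 libraries and reached 1 TPM in 5, which were 4 sublingual libraries and the submandibular library of animal 4. CHGA, CHGB, PCSK1 and PCSK2 stayed below 1 TPM in all 24, and PCSK1 was listed at 0 in 14.

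Order between the 4 other tissues could hardly be told in the main fit. That fit has 1 error per gene for all 5 tissues, so the spread between pancreas libraries enters these comparisons too. In a fit of the 12 parotid and sublingual libraries alone, 3 members were called lower in parotid, with 4213 of 13550 genes called lower. Over the 6 pairs of these tissues, limma called 1 of 36 differences of the 6 tested members in the main fit. SCG5 was lower in submandibular than in sublingual gland by 1.34 on the log2 scale (limma, SE 0.47, adjusted p = 0.0340), a pair in which 27.9% of all genes were called in either direction. For the other pairs, that share was 0.347% (parotid and submandibular gland), 41.5% (parotid and sublingual gland), 58.0% (parotid and liver), 50.7% (submandibular gland and liver) and 31.5% (sublingual gland and liver), with 0 members called in each. At an unadjusted p below 0.05, 2 of the 36 differences passed in limma, both of SCG5: the one called and that of sublingual gland over liver (1.02, adjusted p = 0.102). SCG5 was at 1.39, 7.74, 9.27, 0.672, 3.04 and 5.94 TPM in the sublingual glands of animals 1 to 6, and at 0.206 to 1.81 TPM in submandibular gland. The 2 tissues overlapped through animals 1 and 4. The call was lost in limma with trimmed-mean scaling (-0.89, adjusted p = 0.183), with quantile normalisation (-0.86, adjusted p = 0.214), without a filter (adjusted p = 0.0530), in a fit of the 12 libraries alone (adjusted p = 0.101), and without any 1 of animals 1, 2, 3, 5 or 6. Without animal 4, 5 members were called lower in submandibular than in sublingual gland, in a fit that called 8743 of 13550 genes lower.

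The level of the abundant hormones outside pancreas was set beside that of the exocrine genes. As a percent of its own pancreas mean, each of the 13 acinar genes with at least 100 TPM in pancreas came to 0.583 to 1.10% in parotid, 0.471 to 0.849% in submandibular gland, 0.631 to 1.38% in sublingual gland and 0.878 to 1.46% in liver. INS came to 0.413, 0.541, 1.25 and 0.689% in the same tissues. GCG came to 0.628, 0.514, 0.888 and 0.931%, SST to 0.402, 0.426, 0.996 and 0.609%, and IAPP to 0.471, 0.556, 0.868 and 0.722%. Of these 16 values 9 were within the acinar range of their tissue, 7 below it and 0 above. That placing depends on the pancreas mean, which animal 3 raises. By medians over animals, INS came to 3.03% in sublingual gland, where the acinar genes came to 0.430 to 1.03%, and to 1.10% in submandibular gland, where they came to 0.359 to 0.667%. By medians 5 of the 16 values were above the acinar range, all in these 2 glands: INS and SST in both and IAPP in sublingual gland. The source of the hormone transcripts outside pancreas was not tested. Likewise, the pancreas libraries listed salivary genes, with 7 of them summing to 4228 to 6949 TPM. Over all 10 members, by means, 6, 5, 4 and 7 were at or below the highest of these 13 acinar genes in parotid, submandibular gland, sublingual gland and liver.

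By means, the members above the acinar range were the less abundant ones. That range comes from acinar genes of at least 100 TPM in pancreas. The acinar gene left out, at 5.82 TPM in pancreas, came to 49.6 to 54.8%, so the range is no measure for genes this low. SCG5, which is also made by nerve and other neuroendocrine cells, came to 4.44% of its pancreas mean in parotid, 2.62% in submandibular gland, 13.7% in sublingual gland and 4.18% in liver. PPY came to 4.18, 57.1, 19.5 and 4.24%. The submandibular value rests on 1 library: PPY was at 34.4 TPM in animal 4 and at most 0.535 TPM in the other 5, and the submandibular median was 0.179 TPM. CHGB came to 8.26% in submandibular gland, PCSK2 to 4.52% there, and CHGA and PCSK1 to 3.16 and 3.82% in sublingual gland. These 4 are shares of pancreas means of at most 4.82 TPM. The sum of 14 nerve and Schwann cell genes was 1114 TPM in animal 4 and 93.5 to 146 TPM in the other 5 submandibular libraries. In animal 4 that sum rested mostly on 1 gene, S100B, at 1052 TPM there and 4.35 to 10.3 TPM in the other 5. The sum therefore does not show that the listed genes rose together. The part of these genes in the PPY and PCSK2 values was not tested.

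**Figure D4:**
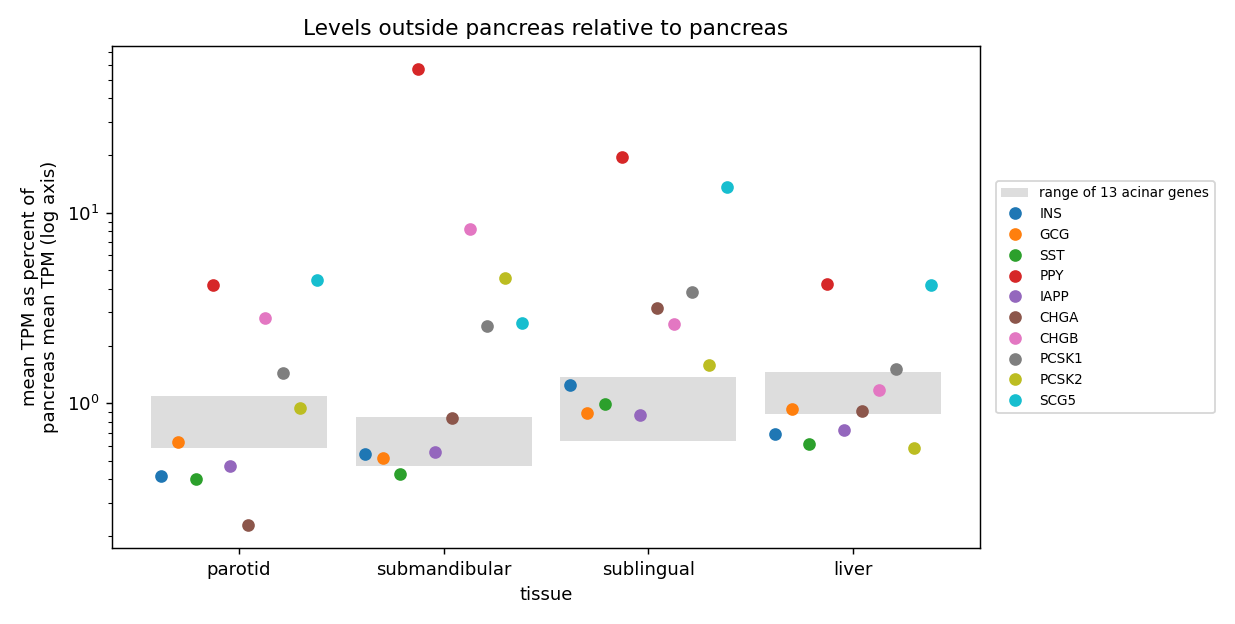
Mean TPM in each tissue as a percent of the mean TPM in pancreas, on a log axis, for the 10 genes (coloured points) and for 13 acinar genes (grey band, lowest to highest). INS, GCG, SST and IAPP lie at or below the top of the band in all 4 tissues, and PPY and SCG5 lie above it in all 4. The band holds acinar genes of at least 100 TPM in pancreas. The acinar gene left out, at 5.82 TPM in pancreas, came to 49.6 to 54.8%.

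INS did not keep a fixed ratio to the other pancreas genes in those libraries. Outside pancreas, 13 of the 24 libraries had 14.5 to 35.2 times as much INS as GCG, and 11 had 65.6 to 164 times as much, with none between. The 13 lie close to the pancreas libraries of animals 1, 2, 4, 5 and 6, at 16.2 to 33.0. Of the 11, 1 lay above the pancreas library of animal 3, at 152, and the others lay below it. In the 11, INS was at 167 to 940 TPM and GCG at 1.48 to 6.07 TPM, and in the 13 they were at 24.6 to 125 and 1.12 to 5.91 TPM. The libraries thus differed in INS and overlapped in GCG. The 11 comprised 2 parotid, 3 submandibular, 4 sublingual and 2 liver libraries. By animal, all 4 libraries of animal 3 were among them, 2 each of animals 2, 4 and 6, 1 of animal 1 and 0 of animal 5.

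The ratio of INS to trypsinogen (PRSS1) divided the same libraries. It was 0.0797 to 0.178 in the 13 and 0.504 to 2.90 in the 11. In pancreas it was 0.0677 to 0.127 in animals 1, 2, 5 and 6, 0.410 in animal 4 and 3.33 in animal 3. Of the 24 libraries 14 lay above the range of those 4 pancreas libraries, and 0 lay above animal 3. The libraries were split at the widest gap in the ratio of INS to GCG after the values had been seen, so the split is a description and has no test. Both ratios share INS, so the ratio to PRSS1 is no separate support for it.

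**Figure D5:**
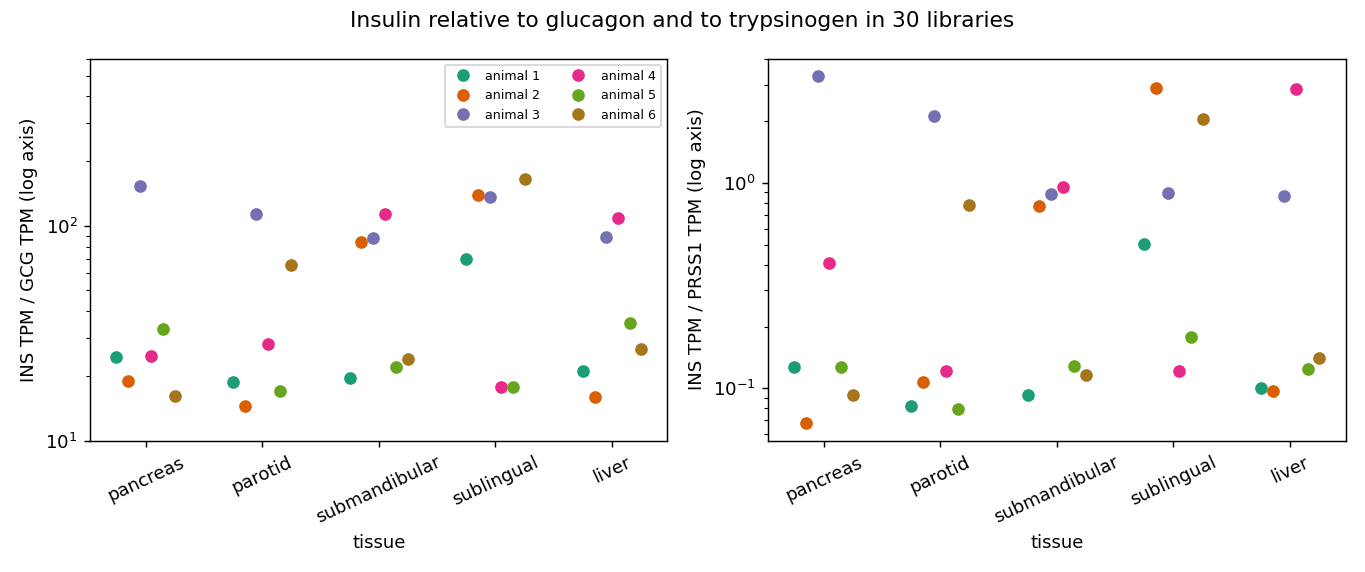
Ratio of INS to GCG (left) and of INS to PRSS1 (right), both in TPM on log axes, for the 30 libraries by tissue, coloured by animal. Outside pancreas the INS to GCG ratios fall into a set at 14.5 to 35.2 and a set at 65.6 to 164, and all libraries of animal 3 are in the higher set.

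Related islet genes were described from lists made for the same tissue, and counted by how many were called against each tissue in the order parotid, submandibular gland, sublingual gland and liver. The shares of all genes called higher in pancreas were 13.6, 7.46, 3.51 and 6.76% in that order, and those called in either direction 15.8, 9.71, 13.9 and 30.4%. UCN3, PTPRN2, SCG3, ABCC8, PDX1 and ISL1 passed the filter only through their pancreas libraries, as did 2 more of the genes counted. Such entry favours a difference without forcing one, so the values and calls of these genes are given as a description. Of 8 tested genes for granules and prohormone processing, 4, 3, 3 and 5 were higher in pancreas and 0, 2, 1 and 0 lower. PCSK1N, PTPRN2 and SCG3, a granule-sorting secretogranin, were higher against all 4. PCSK1N was higher by 3.33 against parotid, 1.79 against submandibular gland, 1.67 against sublingual gland and 4.17 against liver (limma adjusted p = 0.000124, 0.0410, 0.0474 and 1.27e-06). PTPRN2 was higher by 2.58 to 3.38 and SCG3 by 1.33 to 2.54. CPE was higher against parotid and liver, by 2.10 and 3.10 (limma adjusted p = 0.0233 and 0.000341), and differed by 1.31 and 0.99 against submandibular and sublingual gland (limma adjusted p = 0.199 and 0.341). In the submandibular library of animal 4 CPE was at 389 TPM, with 4.86 to 10.2 in the other 5.

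Of 6 tested genes for other islet hormones and peptides, 3, 2, 2 and 2 were higher in pancreas and 0, 0, 1 and 1 lower. UCN3 was higher against all 4 tissues, by 2.75, 2.86, 2.73 and 2.11. TTR, transthyretin, which islets and hepatocytes both make, was higher than in the glands by 3.59, 3.21 and 3.01 and lower than in liver by 3.75 (limma adjusted p = 1.16e-07). Of 7 tested genes for beta cell glucose sensing and excitation, 3, 2, 2 and 1 were higher and 1, 1, 2 and 2 lower. ABCC8 was higher by 2.93 to 3.05 against all 4. Of 5 tested islet transcription factors, 4, 4, 3 and 2 were higher and 1, 1, 1 and 2 lower. PDX1, a factor of beta cells and the pancreas bud, was higher by 2.83 to 2.92 and ISL1, a factor shared by islet cell types, by 1.54 to 1.78. Of 6 tested receptors of islet hormones, 5, 4, 0 and 1 were higher and 0, 0, 0 and 1 lower. For comparison, the median gene of the whole fit differed by 0.48, 0.33, -0.23 and -0.36 on the log2 scale in the same order. SCT, secretin, the 1 gut endocrine gene that passed the filter, was higher in pancreas by 3.02, 2.85, 2.77 and 1.33.

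The genes most like each hormone were sought across the 30 libraries. By Pearson r of log2(TPM + 1), a description over libraries that share animals and tissues, INS was most like SCTR (0.92), ABCC8 (0.91), PDX1 (0.90) and REG1A (0.90). GCG was most like PDIA2, RBPJL and AQP12A, genes known from the acinar cell, and SCTR, the secretin receptor, each at 0.98. SST was most like SCTR, RBPJL, GUCA2A and REG1A, each at 0.96. PPY differed from these, with MATN4 (0.93), FLRT2 (0.92), SALL2 (0.91) and SDK1 (0.90) as its nearest genes. All 4 of these were, like PPY, high in the submandibular library of animal 4: MATN4 was at 17.7 TPM there, FLRT2 at 19.1, SALL2 at 3.88 and SDK1 at 6.04. In the pancreas library of the same animal MATN4 was at 3.86 TPM and FLRT2 at 3.61, below its submandibular library for both.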

How the data were processed

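The authors deposited 1 table of TPM values, with 21292 genes and 1 column per library. It had 0 per-sample columns that were left unused. The submitters' processing notes name FastQC, MultiQC, cutadapt, HISAT2, kallisto, SAMtools, featureCounts and DESeq2 with no role or order, and the table's own name points to kallisto. Versions, the transcriptome and the summing of transcripts to genes are not given in the sources used here. RNA was sequenced as paired reads of 150 bases, per the labels. TPM keep no depth, so the precision of a value rests on the 6 animals alone. The 10 genes were matched by symbol, and 10 of 10 were found in the RefSeq gene table of the species.

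The members and the gene lists were chosen with earlier results of these data known. Groups were taken from the tissue and animal in the labels. The linear model was fitted in limma 3.58.1 (R 4.3.3) to log2(TPM + 1), with a mean trend, tissue and animal as terms and all 30 libraries in 1 fit, after a filter of at least 1 TPM in at least 6 libraries (13550 genes). Two-sided p-values were corrected by Benjamini-Hochberg over all genes within a comparison, with a threshold of 0.05. Animal is a block because the same animals gave every tissue: deviations from tissue means correlated at 0.161 within an animal and -0.0186 between animals. No 2 libraries were identical (0 pairs), and the highest correlation was 0.979.

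Within-animal differences were also tested by exact sign-flip permutation over 64 patterns. The limma fit was tested on simulated data for pancreas against parotid with 200 of 13550 genes changed. It recovered 99.0% of changes of 4 and 81.8% of changes of 2 on the log2 scale. Of the calls made there, 5.73% were false. These rates describe the simulated data only. Whether they hold for the measured libraries, among them those of animal 4 that stood apart, was not tested. Alternatives were no block, trimmed-mean scaling (30% and 5% trimmed, no weights), quantile normalisation, no filter, a filter of 5 TPM, a pseudocount of 0.1, no trend, the 12 libraries compared, and leaving out each animal. Leaving out the pancreas and submandibular libraries of animal 4, and TPM relative to all genes except the acinar list in the limma fit, were chosen after seeing the data.

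From each other list the text names the genes called in all 4 pancreas comparisons (at most 4) and the 2 with the highest pancreas mean, and for each of 4 hormones the 4 genes with the highest Pearson r. A gene that this rule would name is not reported here.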

Additional observations from a re-analysis of the deposited data

Results flagged for a closer look

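In each of 50 sets of 6 libraries (10 genes in 5 tissues), the gap between an end library and its neighbour was compared with the whole range on the log2(TPM + 1) scale. The gap exceeded Dixon's critical value of 0.625 in 9 sets, where about 2.5 would be flagged if the values within each set were normal. Not all sets meet that: PCSK1 was listed at 0 in 4 of 6 libraries in parotid and in sublingual gland. The 9 are therefore not read as an excess over chance. In pancreas, GCG was far lower in animal 4 (16.5 TPM, the next library 325), and CHGB was far higher in animal 3 (14.7 TPM, the next 2.42). In submandibular gland 3 genes stood out in animal 4: PPY at 34.4 TPM (next 0.535), PCSK2 at 0.571 TPM (next 0.0357) and CHGA at 0.110 TPM (next 0.0379). GCG was low in the liver of animal 5, at 1.22 TPM (next 3.53). In the sublingual gland of animal 5, PCSK1 was at 0.0994 TPM (next 0.0203) and PCSK2 at 0.103 TPM (next 0.0416). PCSK1 was at 0.0350 TPM in the parotid of animal 6 (next 0.0102). The last 3 lie near the lowest values that the table lists. Females and males did not move in fully opposite directions in any of 40 sets of pancreas minus another tissue (0 sets). In 30 of these sets pancreas was higher in every animal, and in the rest it was higher in most. Opposite directions could therefore hardly occur, and the count says nothing about a difference between the sexes.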

How the results depend on the processing

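Of 24 differences between pancreas and another tissue for the 6 tested members, 381 of 384 recomputed values kept their direction and side of the threshold, and the 3 losses are those of PPY given above. With no replicate block, 6 of 6 members were called against each tissue and the block changed no call of a member. The members called rose from 6 to 10 against each tissue with no filter, because 4 more were tested. The number of all genes called moved more: against parotid it was 2141, with 947 to 2728 when 1 animal was left out and 8437 relative to non-acinar genes. Against submandibular gland it was 1316, with 623 to 3946 when 1 animal was left out, 2178 with trimmed-mean scaling, 2514 with quantile normalisation, 2582 in the 12 libraries, 3982 without the 2 libraries of animal 4 and 5946 relative to non-acinar genes. Against sublingual gland it was 1887, with 1104 to 4277, 2890 with trimmed-mean scaling, 3144 with quantile normalisation, 1183 at 5 TPM, 1049 in the 12 libraries and 4551 without the 2 libraries. Against liver it was 4114, with 2817 to 6575 and 6609 without the 2 libraries. Without animal 3 the counts against parotid and submandibular gland were the lowest, 947 and 623, and without animal 4 those against submandibular gland, sublingual gland and liver were the highest. Trimmed-mean scaling moved the median of all genes against parotid from 0.48 to -0.04 on the log2 scale and the split of higher and lower calls from 1838 and 303 to 1145 and 1208. Against submandibular gland, sublingual gland and liver that split went from 1011 and 305, 475 and 1412, and 916 and 3198 to 1060 and 1118, 1351 and 1539, and 2064 and 2928. Relative to non-acinar genes it was 8149 and 288, 5649 and 297, 971 and 772, and 1616 and 1952 in the same order, and the members stayed higher, 6 of 6, in every one of these.

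Between the other tissues, members called for parotid and sublingual gland went from 0 to 3 in the 12 libraries, 2 without the 2 libraries and 0 to 3 when 1 animal was left out. Of all 13550 genes, 4309, 7918 and 2854 to 8090 were called in the same order. For submandibular and sublingual gland they went from 1 to 0 with trimmed-mean scaling, quantile normalisation, no filter and the 12 libraries, 4 without the 2 libraries and 0 to 5 when 1 animal was left out. Of all 13550 genes, 9035 were called without the 2 libraries. When 1 animal was left out it was 1281 to 8865, highest without animal 4. For submandibular gland and liver the members called went from 0 to 1 without the 2 libraries and 0 to 1 when 1 animal was left out. Of all 13550 genes, 9793 and 4908 to 9905 were called in these fits. For sublingual gland and liver the members called went from 0 to 1 with a pseudocount of 0.1, in the 12 libraries and without the 2 libraries, and 0 to 2 when 1 animal was left out. Of all 13550 genes, 4187, 4582, 5710 and 3339 to 5214 were called in the same order. SCG5 changed sign for parotid against liver without animal 2 (0.088 to -0.069, the range over leaving out 1 animal being -0.069 to 0.29), and for submandibular gland against liver with trimmed-mean scaling and quantile normalisation (-0.32 to 0.15 in both); the cause was not tested. Members higher in pancreas in every animal, against submandibular gland, numbered 5 to 10 when 1 animal was left out. Taking medians in place of means moved 8 of 40 percents of pancreas, among them INS in sublingual gland to 3.03% and SCG5 there to 25.0%. Depth is unknown, so the counting error of low values, among them all those of CHGA, CHGB, PCSK1 and PCSK2 outside pancreas, cannot be stated.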
